A study of Mus musculus with 2 samples.

Results

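Cluster 1 of the E13.5 mouse mandible library, called C1 here, held 509 of the 6318 cells of that library, a share of 8.06% (95% exact binomial interval 7.40 to 8.75). Its members are the cells that the authors' deposited table assigns to that cluster, and no expression value was used here to choose them. The series holds 13417 cells in all. The authors give the same lineage name, Tongue Muscle, to C1 and to 2 smaller clusters, C15 with 163 cells and C19 with 80 cells. C1 was 67.7% (64.2 to 71.0) of these 752 muscle cells.

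Mandibular prominences, which include the tongue bud, came from wild-type CD1 embryos at embryonic day 11.5 or 13.5. A cold-active bacterial protease, at 3 mg/ml for the E11.5 and 5 mg/ml for the E13.5 embryos, freed cells from 12.5 mg of tissue in 10 minutes, and 9600 cells were loaded on a 10x Chromium to capture 6000. Each stage is 1 library, and the number of embryos in it is not given in the sources used here. With 1 library a stage, no comparison has a replicate check, no test was made, and stage, library and protease dose cannot be told apart. Levels are summed unique molecular identifiers (UMIs, 1 per captured RNA molecule) scaled to 1000000 UMIs of the cell group (CPM, counts per 1000000), and intervals are 95% and cover counting error only. C1 summed to 10159825 UMIs with a median of 19640 per cell (651 to 38924), against medians of 15456 in C15, 23711 in C19 and 8657 in the 5566 cells outside the muscle clusters. The libraries shared 71 cell barcodes.

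Skeletal muscle arises from progenitors that carry the paired-box factor Pax7 or the first myogenic factor Myf5, then switch on Myod1 and, at commitment, Myog. Myog-positive myocytes leave the cell cycle, fuse through the membrane proteins myomaker and myomerger, and assemble sarcomeres, while Notch signalling holds progenitors back from this step. Head muscle uses other upstream factors than trunk muscle: Tbx1, Msc (musculin), Tcf21 and Isl1 act in the branchial arch muscles that move the jaw, and Pax3 and Lbx1 mark the somite-derived progenitors that migrate into the tongue.

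C1 carried the 3 markers of muscle progenitors. Pax7 stood at 21.3 CPM in C1 (216 UMIs) and at 0 UMIs in both C15 and C19, at least 18.2-fold and 13.8-fold higher in C1 (floor of 3 UMIs in each cluster). Myf5 stood at 32.8 CPM, against 4.29 in C15 and 8.25 in C19. Myod1 stood at 350 CPM, below the 1239 of C15 and the 757 of C19. The Pax7 and Myf5 ends of the pathway were therefore highest in C1 and the Myod1 end was not. All 3 were near 0 in the cells outside muscle, with 0.263 CPM for Pax7, 0.47 for Myf5 and 5.57 for Myod1. The 10 genes with the highest ratio of C1 to the rest of the library were Msc, Tcf21, Pax7, Myf5, Islr2, Fgfr4, Lbx1, Met, Pitx3 and Tbx1. Since the clusters were made from these same genes, every contrast of C1 with other clusters is a description.

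Markers of other cell types were low. The summed level of 8 mesenchyme markers was 324 CPM in C1, 3.52% of that in the cluster where it was highest, with none of the 8 at 0. The 8 epithelial markers summed to 0.871% of their highest cluster, the 6 endothelial markers to 0.664%, the 7 erythroid markers to 0.201% and the 6 macrophage markers to 0.0669%. Neuron markers were higher: they summed to 144 CPM, 17.1% of the highest cluster, from Nefl at 68.5, Tubb3 at 36.8 and Nefm at 32.4, with Elavl3 at 0.394 CPM. The pericyte sum was 58.9% of the highest cluster, nearly all of it from Notch3, which is also a gene of muscle progenitors, and 2 of its 6 markers were at 0. A doublet caller marked 0 of the 509 cells, but it marked only 0.127% of the whole library and cannot be taken to have worked. In C1, 5.70% of cells were among the highest doublet scores of the library, against 4.91% of the library as a whole.

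Nearly every C1 cell was called as cycling. By the authors' phase calls 251 cells were in S phase (49.3%, 44.9 to 53.7), 240 in G2 or M (47.2%, 42.7 to 51.6) and 18 in G1 (3.54%, 2.11 to 5.53). The share in S or G2/M was thus 96.5% (94.5 to 97.9), against 16.0% (10.7 to 22.5) in C15 and 0 of 80 cells in C19, which allows up to 4.51%. Outside muscle the share was 47.1%. In the mesenchyme clusters 4 and 10 every cell was called S or G2/M, so phase and cluster go together elsewhere in this library, and the high share in C1 cannot be told apart from the way the clusters were drawn. Cells called G1 were also shallower, with a median of 11620.5 UMIs against 18168 for S and 21862.5 for G2/M.

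**Figure D1:**
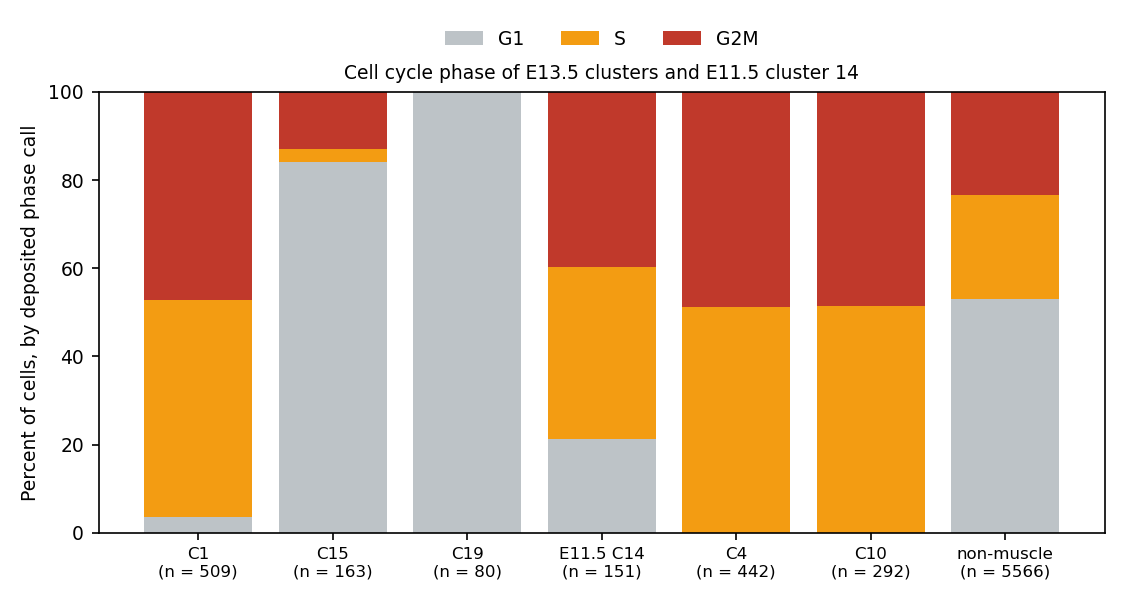
Share of cells in each deposited phase call (vertical axis, percent) for the 3 muscle clusters, the E11.5 cluster 14, the mesenchyme clusters 4 and 10 and all non-muscle cells of E13.5. C1 has 3.54% of cells in G1, C19 has all 80 cells in G1, and C15 has 84.0% in G1.

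Genes of DNA replication and mitosis went the same way as the phase calls. The genes behind those calls are not given, but phase calls are scored on genes of this kind. The counts below are therefore a description and no independent check of the calls. A gene is counted as higher or lower here when its CPM differed by at least 1.5-fold with an interval that left out 1, among genes with at least 20 UMIs in the pair of groups. By that rule 22.4% of the 10902 genes measured were higher in C1 than in C15 and 11.9% were lower. Of 42 S phase genes 41 were higher and 1 was lower, with a median log2 ratio of 2.11 against 0.18 over all genes measured. Of 52 G2 and M genes 48 were higher and none lower (median 1.59). Against C19 the background was 30.1% higher and 16.4% lower, and the same lists gave 41 higher with 1 lower and 50 higher with 0 lower.

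Single genes show the size of the gap. Mki67, a protein of proliferating nuclei, stood at 137 CPM in C1, 29.6 in C15 and 5.15 in C19. Top2a, the topoisomerase of chromosome condensation, stood at 307, 62.8 and 11.9 CPM. Mcm5, a subunit of the replicative helicase, stood at 120, 24.6 and 6.70 CPM. In each case the order from high to low was C1, C15, C19. The single S phase gene that went the other way was E2f8, an atypical E2F repressor, at 12.2 CPM in C1, 21.8 in C15 and 26.3 in C19.

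Against other cycling cells the picture differed. When C1 was set beside the cycling mesenchyme of clusters 4 and 10, 9.18% of 12054 genes were higher and 33.7% lower, a split that moved from 21.4% to 41.4% of calls on the higher side with size factors in place of total UMIs. No S phase gene was higher in C1 and 18 of 42 were lower, and of the 52 G2 and M genes 0 were higher and 39 lower. With size factors 11 and 24 were lower and still none was higher. Top2a stood at 307 CPM in C1 and 717 in clusters 4 and 10, and Tk1, the thymidine kinase of S phase, at 145 and 371. C1 cells therefore held these transcripts at a lower fraction of their RNA than cycling mesenchyme did. They were also deeper, with a median of 19640 UMIs against 10942.5 in cluster 4 and 10859.5 in cluster 10. UMIs per cell were not compared. Clusters 4 and 10 hold no G1 cell, against 18 in C1.

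The promoters of the mitotic genes carry short words known from genes switched on late in the cycle. CCAAT boxes, bound by NF-Y, and the cell cycle homology region TTTGAA, bound by the DREAM and B-MYB complexes, were searched on both strands in the 250 bases upstream of each RefSeq gene start (GRCm38.p6). Neither word contains the other. CCAAT was present in 34.2% of 27025 promoters and TTTGAA in 16.3%, with both in 5.67%. Of the 52 G2 and M genes 46 had a promoter in the table: 33 (71.7%) held CCAAT, 20 (43.5%) held TTTGAA and 17 (37.0%) held both. Of 30 S phase promoters 21 (70.0%) held CCAAT, but only 4 (13.3%) held TTTGAA. Cdk1, the kinase that drives mitosis, and Ccnb2, one of its cyclins, are shown because each holds both words. Cdk1 stood at 301 CPM in C1, 70.9 in C15 and 9.79 in C19, and Ccnb2 at 92.7, 56.9 and 3.09. The sequences run 5′ to 3′ on the strand of the gene, from chr10:69352913-69353162 (minus strand) for Cdk1 and chr9:70421555-70421804 (minus strand) for Ccnb2, and capitals mark CCAAT, its reverse complement ATTGG, and TTTGAA.
Cdk1: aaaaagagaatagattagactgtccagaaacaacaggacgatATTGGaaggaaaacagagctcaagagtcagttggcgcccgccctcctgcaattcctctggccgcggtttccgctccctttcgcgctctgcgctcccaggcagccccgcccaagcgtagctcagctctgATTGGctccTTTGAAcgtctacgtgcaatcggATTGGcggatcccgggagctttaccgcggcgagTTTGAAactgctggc
Ccnb2: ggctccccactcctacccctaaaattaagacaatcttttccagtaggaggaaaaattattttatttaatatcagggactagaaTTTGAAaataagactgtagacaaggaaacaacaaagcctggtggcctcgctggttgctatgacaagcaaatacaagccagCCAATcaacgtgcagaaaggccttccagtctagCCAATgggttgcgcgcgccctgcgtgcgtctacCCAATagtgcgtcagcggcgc
In Cdk1 the word nearest the start is a TTTGAA 15 bases upstream of it, and in Ccnb2 a CCAAT 21 bases upstream. These are matches of letters, and no binding was measured.

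Several upstream factors of head muscle, led by Msc, were higher in C1. Of 17 factors measured against C15, 7 were higher and none lower, and of 17 against C19, 11 were higher and none lower. Over all genes 22.4% were higher and 11.9% lower against C15, and 30.1% and 16.4% against C19. Msc, a repressor of the helix-loop-helix family at chr1:14753346-14755992 (GRCm38, minus strand), stood at 313 CPM in C1, 4.68 in C15 and 1.03 in C19. That is 66.8-fold above C15 (38.2 to 129). Tcf21, its relative and partner in arch muscle, stood at 30.9, 1.95 and 0.515 CPM. Tbx1, which acts above both in the arches, stood at 187, 61.2 and 81.9 CPM.

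Other members of the list were shared by all 3 muscle clusters. Lbx1 stood at 57.2 CPM in C1, 41.3 in C15 and 33.0 in C19, and Isl1 at 33.2, 22.2 and 45.9 CPM. Neither passed the 1.5-fold rule against C15, but Lbx1 passed it as higher in C1 against C19. Pax3, which lies above Pax7 in somites, stood at only 9.15 CPM in C1 against 71.1 in the cells outside muscle. Pax3 was thus lower in C1 than in the rest of the tissue.

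Myog, the factor of commitment, was far lower in C1 than in the other muscle clusters. It stood at 222 CPM in C1, 5564 in C15 and 2901 in C19, a level 25.1-fold higher in C15 than in C1. Myf6, the latest of the myogenic factors, had 13 UMIs in C1 (1.28 CPM), 0 in C15 and 17.5 CPM in C19. Counted in cells thinned to 2000 UMIs each, Myog was seen in 19.1% of C1 cells (15.8 to 22.8), in 99.4% of C15 cells and in all 80 C19 cells. Unthinned, the C1 share was 52.1%. Myog UMIs were also seen in 1.46% of thinned erythroid cells and 2.69% of thinned mesenchyme cells, types that should lack it, and the C1 share lies above these. Of the 507 thinned C1 cells 41.0% held Myod1, 35.3% Msc, 7.10% Myf5 and 2.76% Pax7; unthinned these were 85.5%, 81.1%, 42.8% and 30.8%. Thinned mesenchyme cells held Myod1 in 1.10% and Pax7 in 0.105%. In C15 Pax7 was seen in 0 of 163 unthinned cells, which allows a share of up to 2.24% of cells with a UMI.

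Myog is itself a target of the myogenic factors through E-boxes, CANNTG, which 66.2% of all promoters hold. Its promoter is shown because Myog divides the cluster below. It spans chr1:134289754-134290003 (plus strand, GRCm38.p6), runs 5′ to 3′, and capitals mark the E-boxes.
Myog: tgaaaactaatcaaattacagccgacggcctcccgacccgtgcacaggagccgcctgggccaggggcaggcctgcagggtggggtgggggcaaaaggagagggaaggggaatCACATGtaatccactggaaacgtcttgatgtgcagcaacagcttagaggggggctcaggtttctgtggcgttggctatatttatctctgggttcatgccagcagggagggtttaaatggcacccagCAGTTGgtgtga
Among 35 promoters of sarcomere genes 30 (85.7%) held an E-box and 11 (31.4%) held CAGCTG, which stood in 12.9% of all promoters, while 10 (28.6%) held CCAAT and 2 held TTTGAA.

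**Figure D2:**
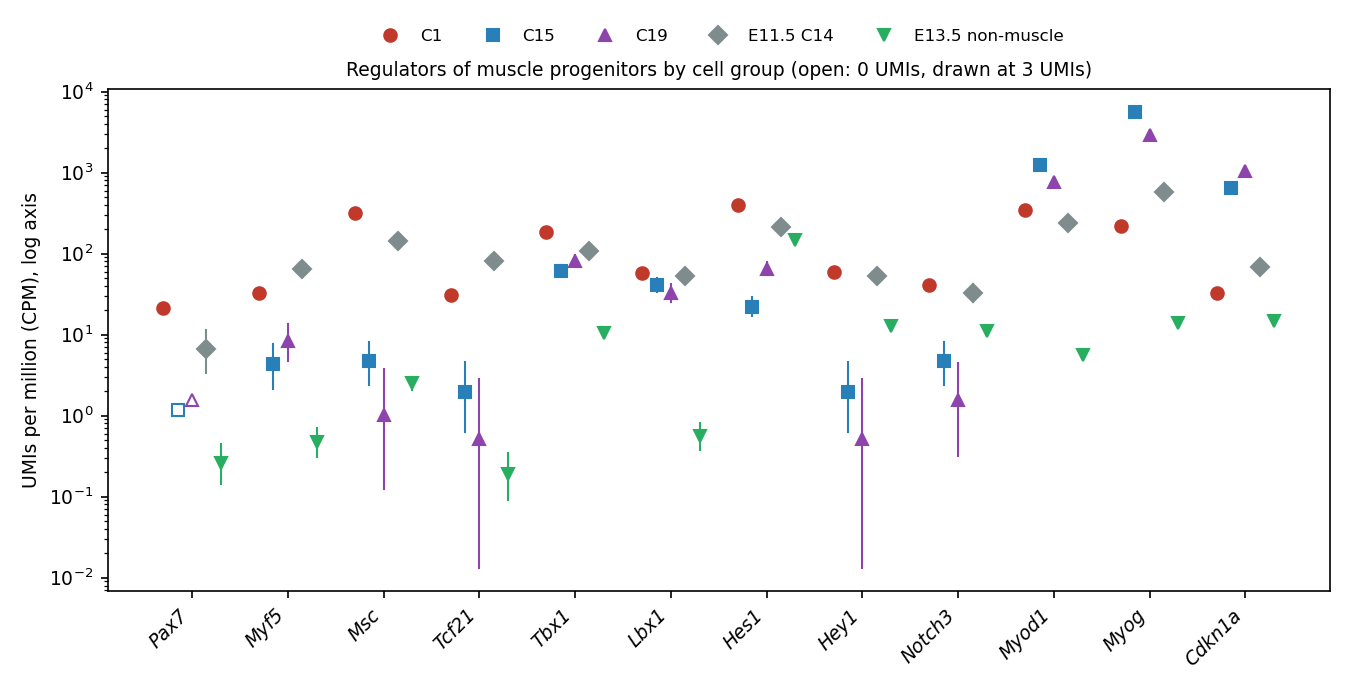
Level of 12 regulators (log axis, CPM) in C1, C15, C19, E11.5 cluster 14 and the non-muscle cells of E13.5, with 95% counting intervals and open symbols for 0 UMIs drawn at 3 UMIs. Pax7, Msc, Tcf21, Hes1, Hey1 and Notch3 lie higher in C1 than in C15 and C19, and Myod1, Myog and Cdkn1a lie lower.

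Readouts of Notch signalling were high in C1 and a Notch ligand was not. Of 15 Notch pathway genes measured against C15, 7 were higher and 3 lower (median log2 0.70), and of 16 against C19, 8 were higher and 2 lower. The shares over all genes were 22.4% higher and 11.9% lower against C15, and 30.1% and 16.4% against C19. The receptor Notch3 stood at 40.5 CPM in C1, 4.68 in C15 and 1.55 in C19. Lfng, a glycosyltransferase that tunes Notch receptors, stood at 70.6, 14.4 and 14.9 CPM. Nrarp, a feedback inhibitor switched on by Notch, stood at 8.76 and 1.95 CPM in C1 and C15 and at 0 UMIs in C19. The ligand Dll1 went the other way, at 9.84 CPM in C1 and 45.6 in C15, with 12.9 in C19. Rbpj, the DNA-binding partner of the Notch intracellular domain, stood at 37.1, 70.9 and 40.7 CPM.

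The repressors that Notch switches on, and the Id proteins that sequester E proteins away from Myod1, were higher as well. Of 12 helix-loop-helix genes measured 7 were higher and 1 lower against C15 (median log2 0.99), and 8 higher and 1 lower against C19. Among all genes the shares were 22.4% and 11.9% against C15, and 30.1% and 16.4% against C19. Hes1 stood at 395 CPM in C1, 22.2 in C15 and 65.5 in C19, a ratio of 17.8 to C15 (13.7 to 23.5). Hey1 stood at 58.5, 1.95 and 0.515 CPM, and Heyl at 27.7, 2.73 and 0.515. Id3 stood at 667, 269 and 125 CPM, and Id1 at 302, 138 and 72.2. The gene that was lower was Hes6, an antagonist of Hes1 that favours differentiation, at 282, 689 and 595 CPM. Hes1 is not particular to muscle progenitors in this tissue, since it stood at 149 CPM outside muscle.

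Growth factor receptors of progenitors showed the same order for several members. Of 18 genes of the FGF and receptor tyrosine kinase list 8 were higher and 2 lower against either cluster. The shares over all genes were 22.4% higher and 11.9% lower against C15, and 30.1% and 16.4% against C19. Met, the receptor through which migrating progenitors sense HGF, stood at 32.9 CPM in C1, 3.12 in C15 and 0.515 in C19. Fgfr4, the FGF receptor of myoblasts, stood at 31.8, 17.9 and 4.64 CPM. Dusp6, a phosphatase induced by ERK signalling, stood at 33.6, 7.02 and 6.70 CPM, but the cells outside muscle had it at 33.4. Spry4, a feedback inhibitor in the same pathway, was lower in C1, at 2.07, 14.03 and 5.15 CPM.

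Among the regulators of cell cycle exit named here, growth-promoting genes were higher in C1 and inhibitors were lower. The other members of the list are not placed by role. Of 22 measured against C15, 9 were higher (22.4% over all genes) and 7 lower (11.9% over all genes). The G1 cyclin Ccnd1 stood at 70.8 CPM in C1, 11.7 in C15 and 5.15 in C19, and Ccnd2 at 278, 66.3 and 36.1. Myc stood at 36.5, 5.46 and 4.64 CPM, and Mycn at 65.1, 15.6 and 14.4. The inhibitors named next were lower in C1 than in both other clusters. Cdkn1a (p21), which Myod1 induces in differentiating myocytes, stood at 32.3, 654 and 1046 CPM. Cdkn1c (p57) stood at 2665, 11279 and 7258 CPM, and Rb1, the retinoblastoma protein, at 6.99, 70.9 and 53.1. Cdkn1c was abundant in the cycling cells too: it was seen in 92.7% of C1 cells thinned to 2000 UMIs, and at 3023 CPM outside muscle.

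The fusogens and several factors of late differentiation were lower in C1. The 2 fusogens gave wide gaps: myomaker (listed under its older symbol Tmem8c) stood at 9.55 CPM in C1, 583 in C15 and 823 in C19, and myomerger (listed as Gm7325) at 11.9, 1038 and 311. Of 13 fusion genes measured against C15, 6 were lower (11.9% over all genes) and 3 higher, near the 22.4% over all genes. A higher one was Cdon, a surface receptor of the promyogenic complex, at 11.6, 2.73 and 1.03 CPM, although it stood at 17.1 outside muscle. Of 12 factors of the MEF2 and SRF programme 8 were lower and 1 was higher against C15, with the same shares over all genes. Mef2c, the partner of myogenic factors in late differentiation, stood at 27.6, 443 and 1557 CPM, and Smyd1, a methyltransferase needed for sarcomere assembly, at 3.05, 74.4 and 229. Vgll2, a cofactor of TEAD proteins in skeletal muscle, peaked in C15, at 4.53, 167 and 37.1 CPM.

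Contractile genes were the lowest group of all in C1, with a few exceptions. Over all genes 11.9% were lower and 22.4% higher against C15, and 16.4% and 30.1% against C19. Of 38 sarcomere genes measured against C15, 33 were lower and 2 higher (median log2 -3.88), and of 45 against C19, 42 were lower and 2 higher (median -7.00). The 2 higher against C15 were Myh6 and Nebl, at 5.32 and 5.12 CPM in C1, and against C19 Nebl and Actn3, the latter at 35.9 CPM against 17.5. Acta1, the adult skeletal actin, stood at 9.06 CPM in C1, 300.1 in C15 and 5652 in C19. Mylpf, the fast regulatory light chain, stood at 53.6, 2542 and 20406 CPM. These levels in C1 lay near those of cells that make no muscle, with Acta1 at 8.88 and Mylpf at 43.5 CPM outside the muscle clusters. In 14 of 41 sarcomere genes the ratio of C1 to non-muscle cells had an interval that held 1 or lay below it, and 25 were higher in C1.

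A subset of contractile genes stood clearly above that background. Acta2, the smooth muscle actin that early myoblasts also make, stood at 1701 CPM in C1, 3468 in C15 and 3358 in C19, against 37.1 outside muscle. Tnnt1, the slow troponin T, stood at 961, 2429 and 3407 CPM, against 28.9, and was seen in 99.0% of C1 cells unthinned. Actc1, the cardiac actin of embryonic muscle, stood at 360, 5267 and 10262 CPM, against 26.99. The giant proteins Ttn (87.8, 654 and 2080 CPM) and Neb (76.9, 462 and 1055 CPM) followed, against 4.44 and 2.58 outside muscle. C1 therefore held these 5 transcripts at levels between the non-muscle cells and the differentiating clusters.

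**Figure D3:**
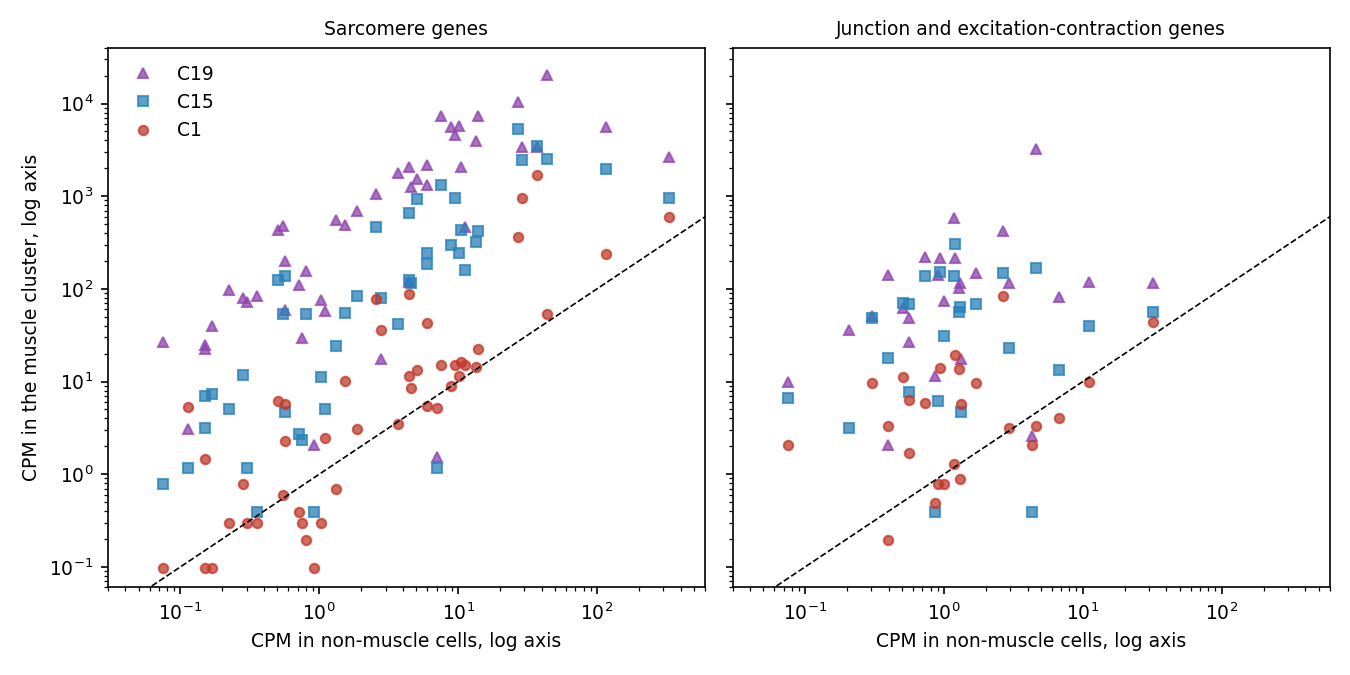
Level of each sarcomere gene (left) and each gene of the neuromuscular junction and of excitation-contraction coupling (right) in C1, C15 and C19 (vertical log axis, CPM) against its level in non-muscle cells (horizontal log axis, CPM). Genes with 0 UMIs in a group are not drawn; many C1 points lie near the dashed line of equal level, while C15 and C19 points lie above it.

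Genes of the synapse and of calcium release were low in the same way. Of 23 measured against C15, 20 were lower and none higher, and of 25 against C19, 24 were lower and none higher. The shares over all genes were 11.9% lower and 22.4% higher against C15, and 16.4% and 30.1% against C19. Rapsn, which clusters acetylcholine receptors, had the smallest gap among those named here, at 84.6 CPM in C1, 149 in C15 and 421 in C19, and stood at 2.65 outside muscle. Chrna1, the receptor's alpha subunit, stood at 19.5, 306 and 216 CPM. Casq2, a calcium store protein, stood at 1.28, 137 and 586 CPM, and its C1 level matched the 1.18 CPM outside muscle. Cacna1s, the voltage sensor of the T tubule, had 0 UMIs in C1 and 69 in C19, which is at least 120-fold higher in C19 (floor of 3 UMIs in C1).

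Surface and filament proteins did not share a direction. Of 20 measured against C15, 5 were higher, near the 22.4% over all genes, and 6 were lower, above the 11.9% over all genes. Cdh15, the muscle cadherin, stood at 89.6 CPM in C1, 248 in C15 and 222 in C19. Nes, the intermediate filament nestin that is often used as a progenitor marker, stood at 41.1, 416 and 557 CPM, the reverse of the Pax7 order. Des, the muscle filament desmin, stood at 276, 486 and 1205 CPM. Cxcr4, the chemokine receptor of migrating progenitors, stood at 7.28 and 1.95 CPM and had 0 UMIs in C19.

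Matrix genes were higher in C1 than in the differentiating clusters and lower than in the rest of the library. Of 26 measured 18 were higher and none lower against C15 (median log2 1.01), and 14 higher and 4 lower against C19. Among all genes the shares were 22.4% and 11.9% against C15, and 30.1% and 16.4% against C19. Against the non-muscle cells, where the background was 9.31% of 14700 genes higher and 34.8% lower, 1 of 28 was higher and 22 lower (median -1.68). Col3a1, a fibrillar collagen, stood at 118 CPM in C1, 40.1 in C15 and 43.3 in C19, but 611 outside muscle. Lamb1, a laminin chain of the basement membrane, stood at 42.8, 11.3, 5.15 and 61.5 CPM in the same order. The summed mesenchyme markers moved with them, at 324 CPM in C1, 210 in C15 and 197 in C19, and their part in this difference was not tested.

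Of 18 measured genes of the growth signal, BMP and TGF-beta list 4 were higher and 2 lower against C15, and of 19 against C19 5 were higher and 3 lower, near the shares over all genes. Single members had wider gaps. Igfbp5, an IGF-binding protein of myoblasts, stood at 208 CPM in C1, 120 in C15 and 31.4 in C19. Fst (follistatin) and Mstn (myostatin), an antagonist and ligand pair of muscle growth, were both lower in C1: Fst stood at 14.9, 150 and 261 CPM and Mstn at 4.04, 21.0 and 51.0. Of 14 imprinted growth genes 4 were higher and 2 lower against C15, near the shares over all genes (22.4% and 11.9%). Against C19 4 were higher and 8 lower, and only the lower count stood above its share over all genes (30.1% higher, 16.4% lower). The noncoding RNA Meg3 stood at 587, 2332 and 6194 CPM, whereas Mest, on another imprinted locus, ran from 630 to 407 and 71.1. Dlk1, a neighbour of Meg3, was level between C1 and C15 (200.2 and 182 CPM) and at 1386 in C19.

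RNA-binding proteins of muscle splicing and metabolic genes were more often lower than higher. Of 17 RNA-binding proteins 7 were lower and 2 higher against C15, and 10 lower and 3 higher against C19. Among all genes the shares were 11.9% lower and 22.4% higher against C15, and 16.4% and 30.1% against C19. Rbm24, a splicing regulator that stabilises Myog RNA, stood at 27.1 CPM in C1, 128 in C15 and 87.6 in C19. Rbfox2 stood at 80.0, 249 and 275 CPM. Among metabolic genes 7 of 15 were lower and 2 higher against C15 although their median log2 ratio was 0.15 (-0.60 without the cells of high doublet score), with Eno3, the muscle enolase, at 24.3, 58.9 and 493 CPM. Of the immediate early genes that dissociation can induce, 3 of 11 were higher and 1 lower against C15. These counts are near the shares over all genes, 22.4% higher and 11.9% lower. Jun stood at 72.4, 9.74 and 26.8 CPM and Fos at 2.17, 1.95 and 5.67. Of 14 HOX genes listed only 2 reached 20 UMIs, and Hoxc5 had 43 UMIs in C1 and 0 in C15 and C19.

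**Figure D4:**
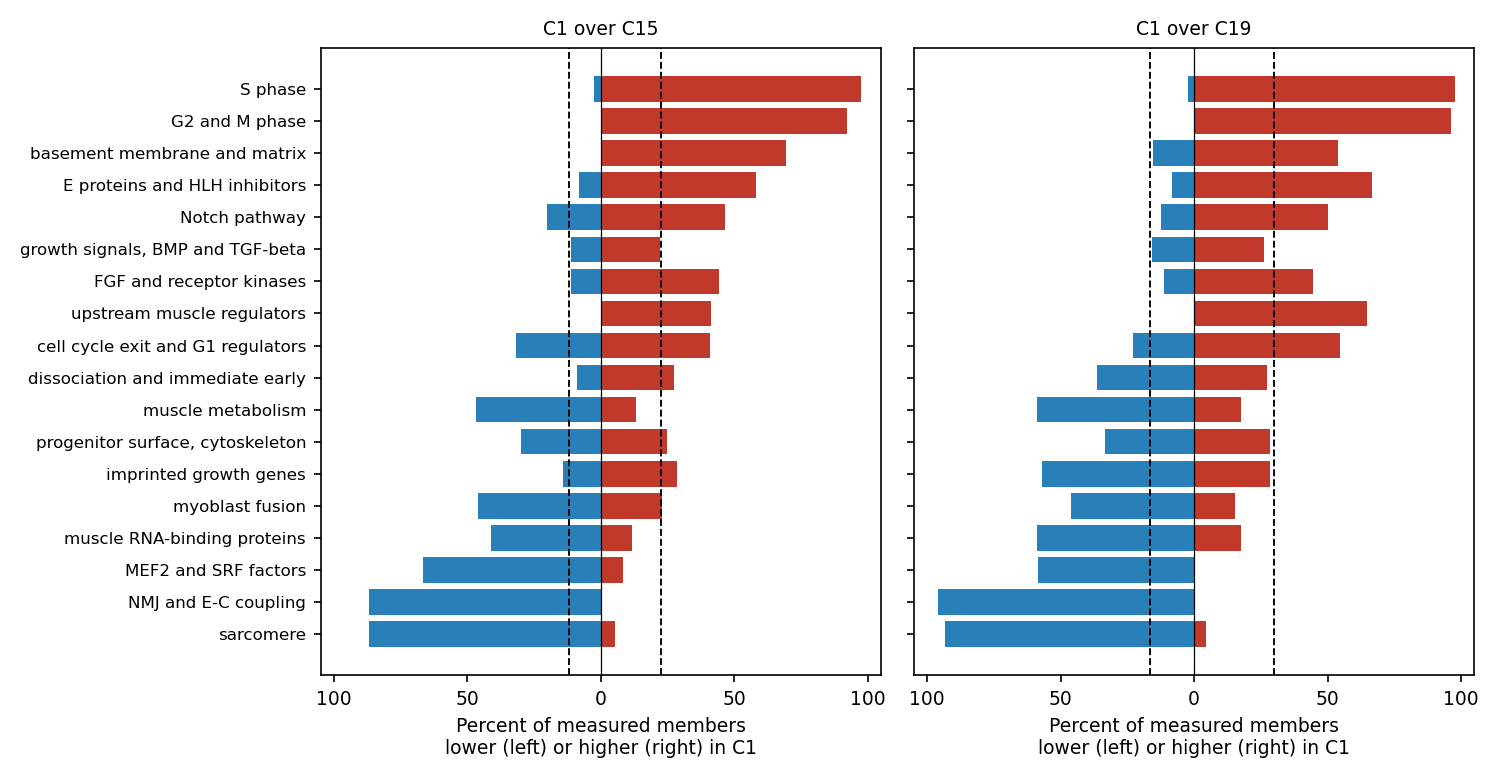
Percent of the measured members of each list with 10 or more measured members that were higher (right) or lower (left) in C1 than in C15 and C19, with dashed lines at the share of all genes measured. S phase, G2 and M phase genes reach over 90% on the higher side, and sarcomere and junction genes over 85% on the lower side.

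A few genes outside the muscle and cycle lists ranked high in C1. The gene with the largest ratio of C1 to C15 under the naming rule was Nefl, the light neurofilament chain, at 68.5 CPM in C1, 0.39 in C15 (1 UMI) and 0 UMIs in C19. Its ratio to C15 was 176 (31.4 to 6952), and it was at least 44.3-fold higher than in C19 (floor of 3 UMIs in C19). It stood at 21.3 CPM outside muscle. Nefl was uneven within C1: 114 cells had a UMI, and 79 cells with 3 or more UMIs held 93.0% of them, up to 24 in a cell. Those 79 cells were deeper than the cluster, with a median of 26312 UMIs. Fxyd7, a small regulator of the sodium pump, stood at 76.5, 1.95 and 2.58 CPM, and Islr, a secreted protein of progenitor and stromal cells, at 82.5, 7.02 and 4.64 (55.6 outside muscle). The others of the 12 highest were Msc, Hey1, Hes1, the actin-binding Tagln and 5 genes of S phase or histones, and the 12 lowest were led by Tex14, Unc45b, Casq2, Stac3 and Tnnt2.

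Against the cells outside muscle the highest ratios belonged to transcription factors and contractile genes alike. Msc was 125-fold higher in C1, Lbx1 101-fold, Pitx3 78.2-fold and Myod1 62.9-fold. Fitm1, a lipid droplet protein of muscle, was 66.2-fold higher and Nkx2-5, a homeobox factor best known from the heart, 59.7-fold. All 3 measured myogenic factors and 13 of 18 upstream factors were higher than outside muscle, against 9.31% of all genes. Across the 22 clusters of the library the log level of the muscle markers was matched most closely by Lbx1 (Pearson r 0.957), Pitx3 (0.936), Cdh15 (0.909) and Nkx2-5 (0.908). These values describe 22 clusters of 1 library that differ in depth, and 3 of the 22 are muscle.

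Within C1 the 18 cells called G1 were set beside the 491 others. Of 3 measured myogenic factors 1 was higher in the G1 cells, of 12 fusion genes 1, and of 12 MEF2 and SRF genes 0, and 15 of the 18 remain without the highest doublet scores. Of 10435 genes measured 2.44% were higher in G1 and 4.15% lower. Myog stood at 592 CPM in G1 cells, 150.2 in S and 268 in G2/M, and Cdkn1c at 5731, 2505 and 2673. Mxd4, a MAX partner that opposes MYC, was the first of the higher genes, at 118 CPM in G1 against 21.4 in the other cells, and Ddit4, an inhibitor of mTOR signalling, stood at 162 against 38.6. Tcf21 stood at 4.39 CPM in G1, 27.6 in S and 34.9 in G2/M, on 1 UMI in G1. Myod1 varied less, at 342, 304 and 390 CPM. The lower genes were led by Spc25, Hist1h2ap and Prc1, genes of the cell cycle itself. With 18 shallow cells, 1 UMI in the G1 group is worth 4.39 CPM.

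Cells of C1 were not uniform for Msc and Myog. When 505 cells were thinned to 5000 UMIs, 299 held Msc and 162 held Myog. Both were seen in 56 cells, where 95.9 would be expected if they were independent. Myod1 and Myog were seen together in 135 cells against 100.1 expected. Msc and Tcf21 met in 47 cells against 37.3, and Pax7 and Myog in 7 against 12.8. Myog and the actin Actc1 were seen together in 122 cells against 75.7. Msc and Myog thus met in fewer cells, and Myog met Myod1 and Actc1 in more cells, than the product of their shares. By Msc and Myog the cells divided into 243 with Msc alone (48.1%), 106 with Myog alone (21.0%), 56 with both (11.1%) and 100 with neither (19.8%).

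The cells with Msc alone and those with Myog alone had like depth and phase but different muscle genes. Their median depths were 19465 and 19647 UMIs, and S phase shares were 51.4% and 43.4%. Of 6462 genes 3.30% were higher and 2.74% lower in the Msc cells. Myf5 stood at 42.0 CPM with Msc and 7.55 with Myog, Tcf21 at 34.6 and 9.43, and Hey1 at 65.8 and 26.4. Myod1 stood at 195 and 747 CPM, Cdkn1a at 14.8 and 92.5, and Gadd45g, a stress and differentiation gene, at 21.4 and 204. The actin Actc1 stood at 156 and 762 CPM, myomerger (Gm7325) at 1.65 and 41.5, and Mef2c at 16.5 and 64.2. These genes were chosen after their values were seen, and 6 of the 243 Msc cells and 6 of the 106 Myog cells were called G1. The mesenchyme marker sums were alike, at 324 and 319 CPM, but 9 of 243 and 12 of 106 cells were among the highest doublet scores.

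A second division followed Isl1 and Lbx1. They were seen together in 6 of 505 cells against 15.3 expected, with 48 cells holding Isl1 alone and 137 Lbx1 alone. Of 4594 genes 3.92% were higher and 3.79% lower in the Isl1 cells. Nefl stood at 238 CPM with Isl1 and 40.9 with Lbx1, its partner chain Nefm at 108 and 14.6, and the neuronal tubulin Tubb3 at 95.8 and 16.1. Isl1 and Nefl met in 29 cells against 7.91 expected. The homeobox factor Msx1 stood at 104 and 8.76 CPM, Lef1, a nuclear effector of WNT signalling, at 79.2 and 13.1, and Barx2, a homeobox factor of muscle progenitors, at 95.8 and 40.9. The Isl1 cells also had more of some sarcomere transcripts, with Actc1 at 717 and 264 CPM and Actn3 at 87.5 and 16.1.

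The genes lower in the Isl1 cells included growth regulators. Cdkn1c stood at 1529 CPM with Isl1 and 3022 with Lbx1, Meg3 at 238 and 806, and Dlk1 at 66.7 and 235. Fxyd7 stood at 16.7 and 128 CPM, Mgp, a matrix inhibitor of calcification, at 4.17 and 93.4, and Nkx2-5 at 66.7 and 164. These are small counts: Mgp had 1 UMI in the Isl1 cells and 64 in the Lbx1 cells, and Fxyd7 had 4 and 88. Msc was present on both sides, at 233 and 352 CPM. The summed neuron markers moved with this division, at 450 CPM with 1 of 6 at 0 in the Isl1 cells and 74.5 CPM with 2 of 6 at 0 in the Lbx1 cells. Nearly all of both sums came from Nefl, Nefm and Tubb3, whose levels are given above. The mesenchyme marker sums were 354 and 241 CPM, with 2 and 0 of the 8 markers at 0. Msx1, given above at 104 and 8.76 CPM, is 1 of these 8 and made up most of the difference. Depth moved too, with medians of 25540.5 and 19138 UMIs, and phase, with 60.4% and 46.7% of cells in G2/M. None of the 48 Isl1 cells and 7 of the 137 Lbx1 cells were among the highest doublet scores. Among S phase cells alone the log2 ratio of Isl1 to Lbx1 cells was 3.28 for Nefl, 2.36 for Actc1 and -1.62 for Cdkn1c, and among G2/M cells alone it was 0.68 for Actc1. The part of depth, neuron and mesenchyme transcripts in the division was not tested.

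**Figure D5:**
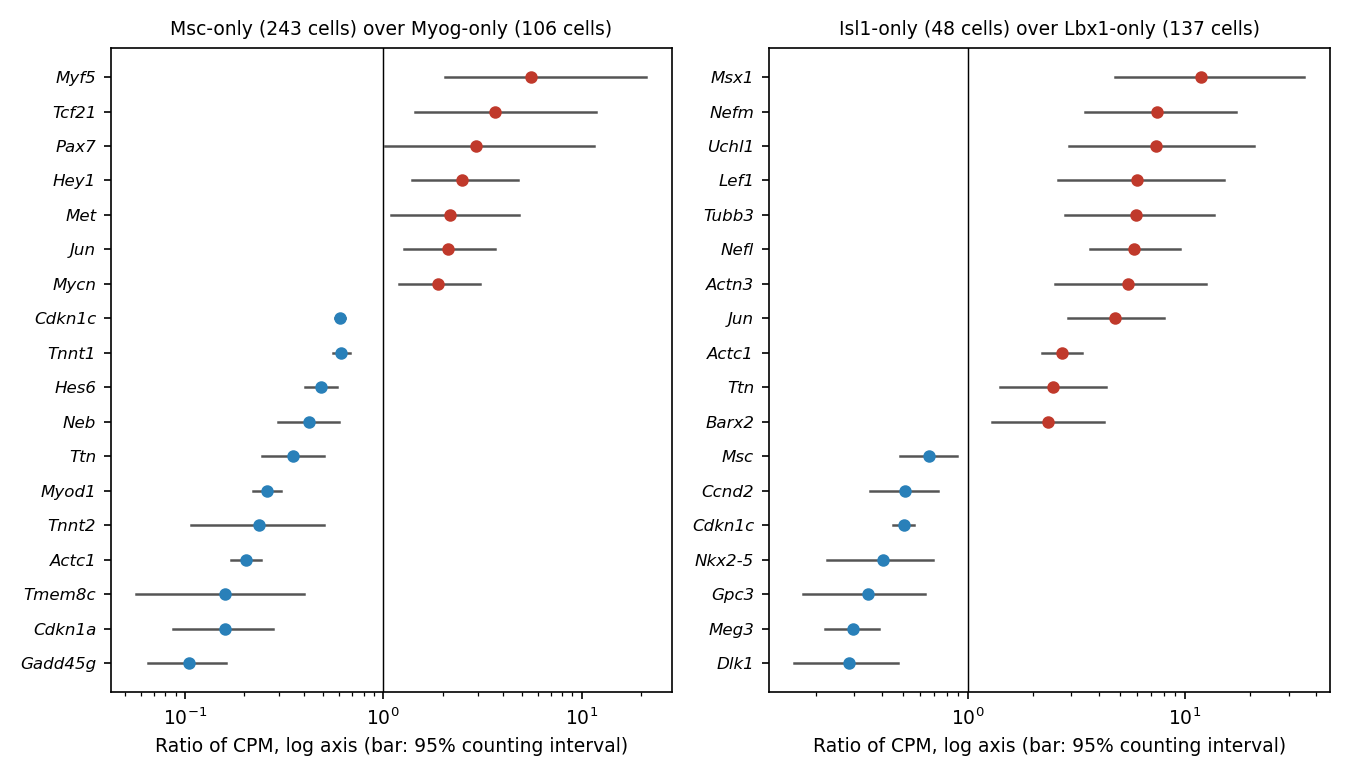
Ratio of CPM between cells of C1 with 1 of a pair of factors alone, after thinning to 5000 UMIs (horizontal log axis, bars are 95% counting intervals). Left, Msc-only over Myog-only cells, with Myf5 and Tcf21 on the higher side and Myod1, Actc1 and Cdkn1a on the lower; right, Isl1-only over Lbx1-only cells, with Nefl, Tubb3 and Msx1 higher and Dlk1, Meg3 and Cdkn1c lower.

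Cells with Pax7 were too few for a broad account. The 40 cells with Pax7 at 5000 UMIs had Myog at 60 CPM against 243 in the other 465, and Mki67 at 225 against 127. Of 7548 genes 1.76% were higher and 1.02% lower. The 7 erythroid markers moved with this division, at 5125 CPM in the Pax7 cells and 1385 in the rest, and their part was not tested. Pax7 UMIs were thinly spread, with at most 3 in any cell.

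The E11.5 library held 1 cluster led by muscle genes, C14, with 151 cells, a median of 11778 UMIs and no deposited lineage name. In it 78.8% of cells (71.4 to 85.0) were called S or G2/M. Between C1 and C14 6.53% of 10772 genes were higher in C1 and 11.8% lower, but with size factors the higher side moved from 35.7% to 57.2% of calls. Pax7 was higher in C1, at 21.3 against 6.57 CPM, and Myf5 and Myog were lower, at 32.8 against 64.1 and at 222 against 579. Tcf21 stood at 30.9 against 80.5 CPM and Msc at 313 against 141. Of 16 upstream factors 6 were higher and 5 lower in C1. Isl1 stood at 33.2 against 11.5 CPM, Barx2 at 56.7 against 9.86, and Lbx1 was level at 57.2 and 53.1.

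Other lists were set beside C14 in the same way. Of 26 matrix genes 14 were higher and none lower in C1, and with size factors 16 were higher. Without size factors 6.53% of all genes were higher and 11.8% lower. Cdkn1c stood at 2665 CPM in C1 and 1229 in C14, Meg3 at 587 and 264, and Met at 32.9 and 7.67. Of 42 S phase genes 1 was higher and 5 lower, or 1 and 3 with size factors, and of 52 G2 and M genes 3 were higher and 2 lower, or 8 and 0 with size factors. Without size factors these cycle counts are close to or below the shares over all genes. Nefl again led the higher genes, at 68.5 against 5.48 CPM, followed by Fxyd7, Barx2, Hist1h1e and Anxa2. All 8 of the highest-ranked genes were also higher in E13.5 than in E11.5 mesenchyme, from 1.38-fold for Fxyd7 to 3.55-fold for Anxa2, with Nefl at 31.1 against 11.4 CPM.

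The genes lowest in C1 against C14 were led by Pbld2, Rrm2b and Lrrc8a, and mesenchyme had the same difference, with E13.5 levels of 1.17, 1.90 and 9.45 CPM against 54.2, 21.6 and 103.7 at E11.5. The other lowest genes in C1 were lower in E13.5 mesenchyme too, except Myl1. Myl1, a myosin light chain, stood at 15.3 CPM in C1 and 100.2 in C14, and its UMIs in mesenchyme came to 7.61 CPM at E13.5 and 0.697 at E11.5. The libraries also differed in Xist, the RNA of the inactive X chromosome, at 499 CPM in E13.5 and 0.0536 in E11.5 mesenchyme.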

How the data were processed

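One 10x library of mouse mandible was measured per stage, E11.5 and E13.5. For every cell the authors deposited raw UMI counts by gene and, in a second table, its cluster, lineage name, phase call, cell cycle scores (score values not used) and mitochondrial fraction of counts. The submitters' processing notes name Cell Ranger 2.0.0, Seurat 2.3.4 and mm10; cell filters, doublet removal and the genes behind the phase calls are not given. All 6318 E13.5 cells were kept. The libraries' cells had median depths of 6231 (E11.5) and 9280 (E13.5) UMIs. UMIs were summed over cells of a cluster and divided by the sum (CPM). Ratios have exact conditional binomial intervals and shares exact Clopper-Pearson intervals; UMI sums of a cluster are not replicates, so no p-value is given. Genes needed 20 UMIs over both groups. In list medians, a gene with 0 UMIs on 1 side stands at 3 UMIs. Named were the muscle factors (some members are not reported here), the 2 highest and 2 lowest members of each list, and the 6 to 12 highest and lowest ratios of each contrast among genes with at least 50 CPM on the higher side, 50 UMIs and an interval beyond 1.5-fold; other members were chosen for their role after their values were seen. The contrast with clusters 4 and 10 and the divisions of C1 were also added after seeing the data. Cells were thinned to 2000 or 5000 UMIs (seed 1) for shares and divisions of C1. Doublet scores came from scrublet in scanpy 1.11.5, run with scipy 1.17.1, numpy 2.4.6 and pandas 2.3.3 under Python 3.11.15; figures used matplotlib 3.10.9. The 20 lists and 10 marker lists were chosen, as the cluster was, with earlier results of these data known. The ratio script was tested on simulated data. Alternatives were size factors, equal weight per cell, other minima and folds, cells with at least 2500 UMIs and at most 8% mitochondrial counts, no cells of high doublet score, and G1 cells only.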

Additional observations from a re-analysis of the deposited data

How the results depend on the processing

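No paired analysis was possible because each stage is 1 library, and no replicate can be left out. Of 92 recounts of called genes 71 stayed within 1.5 times. Of 138 recomputed list medians 124 moved by no more than the median half-width of their members' log2 counting intervals. That is the width for a typical single member, not the counting error of the median. Taking G1 cells only leaves 18 C1 cells. It cut the genes called against C15 from 2442 higher and 1300 lower to 518 and 523, against C19 from 3306 and 1796 to 955 and 761, against non-muscle cells from 1369 and 5116 to 717 and 874, and against E11.5 C14 from 703 and 1268 to 227 and 524. A 2-fold rule gave 1603 and 835 (C15), 593 higher (non-muscle), 415 and 573 (E11.5 C14), and 646 and 2494 (cycling mesenchyme, from 1106 and 4058). A minimum of 100 UMIs gave 864 lower (C15) and 1163 lower (C19). Size factors gave 1078 higher and 808 lower (E11.5 C14) and 1950 higher (cycling mesenchyme), and equal weight per cell 1464 higher (E11.5 C14).

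Against C15 with G1 cells only, the median log2 ratios became -2.59 (myogenic factors, from -1.82), 0.15 (helix-loop-helix genes, from 0.99), -1.40 (fusion, from -0.45), -3.24 (sarcomere, from -3.88), 1.37 (S phase, from 2.11), 0.88 (G2 and M, from 1.59), -0.26 (cycle exit, from 0.33) and 0.083 (imprinted, from -0.11). A minimum of 100 UMIs gave -1.89 (MEF2 and SRF, from -1.16) and -4.23 (sarcomere). A minimum of 1 UMI gave -0.85 (myogenic factors), -1.44 (metabolism, from 0.15) and -0.27 (RNA-binding proteins, from -0.53), and leaving out high doublet scores gave -0.60 for metabolism. Size factors moved the median log2 ratio of all genes by -0.12 (C19), 0.11 (non-muscle), 0.15 (E11.5 C14) and 0.28 (cycling mesenchyme). The surface list's median against C15 turned from 0.02 to -0.05 with size factors.

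Among 3252 recomputed ratios of single genes, 20 of genes called higher or lower in the main contrast changed sign, all with G1 cells only. Sign changes of genes not called were not counted. Against C15 these were Hist1h1e (-0.61), Mxd4 (1.23) and Spry2 (0.81), and against C19 Hist1h1e (-0.998) and Lamb2 (0.031). Against non-muscle cells they were Asb4 (0.98), Atad2 (-0.97), Cdkn1a (-0.90), Ddit4 (0.78), Hist1h1e (-0.12), Lrp4 (0.10), Mxd4 (0.77), Nefl (-1.59), Pdcd4 (0.63), Spc25 (-0.67), Spry4 (0.85), Tagln (-0.93) and Unc45b (2.36). Against E11.5 C14 they were Hist1h2ap (-3.14) and Pitx3 (-0.077). Keeping only G1 cells changes both cell number and phase, and the cause of these sign changes was not tested. In the divisions of C1, 17 of 50 recomputed values moved by more than their counting error, under alternatives chosen after seeing the data. With S cells only 8 moved and 2 did not, and with G2/M cells only 3 moved and 7 did not. Of the genes called in those divisions 0 changed sign. Leaving cells unthinned moved 21 of 21 shares of cells, and thinning to 5000 UMIs moved 20 of 21.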
